A study of Homo sapiens with 6 samples.

Results

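The genes described here make and repair the programmed DNA breaks of meiosis, and they were read in HEK293T cells with and without a knockout of SMARCA3. There are 10 of them among the 56832 gene symbols of the deposited count table: C15orf60, MEI1, SPO11, HORMAD1, DMC1, SYCP2, SYCP3, STAG3, REC8 and SMC1B. C15orf60 is an older symbol of REC114 and was chosen by its very large rise in the knockout libraries, while the other 9 were listed for their function. Its CPM, counts and fold change are the measured values it was selected on, so they are given as a description with no test.

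The libraries were 3 from cells labelled SMARCA3 KO and 3 from cells labelled WT, all HEK293T, a line from human embryonic kidney transformed with adenovirus DNA, to which the large T antigen of SV40 was added. SMARCA3 is the protein of the HLTF gene, an SNF2-family ATPase with a RING ubiquitin ligase domain, and the series title names it as a ubiquitin ligase of histone H3 that acts on H3K9me3. The labels do not say how the knockout was made, whether it is 1 clone, or whether replicates were separate cultures, so the p-values reflect the spread among these 6 libraries, which may be technical. Poly(A)-selected RNA was sequenced, and total counts were 33125811 to 36804337 in the SMARCA3 KO libraries and 38199454 to 41593655 in the WT libraries.

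HLTF itself measured 141, 140 and 149 CPM (counts scaled to a library of 1000000) in the SMARCA3 KO libraries, against 215, 191 and 195 CPM in the WT libraries. The log2 fold change was -0.48 (SE 0.05, adjusted p = 4.65e-05 by edgeR), and an exact two-sided permutation test gave p = 0.1, the smallest that 3 against 3 libraries allow. The 40 nearest expressed genes on chromosome 3 had a median log2 fold change of -0.50, and with that median removed the value of HLTF was 0.03 (adjusted p = 0.661). The counts cannot say if the gene's sequence or its protein was changed. The line markers PAX2, KRT8, KRT18, VIM and CDH2 were present in all libraries, with PAX2 called higher (10.8 CPM in SMARCA3 KO, 4.52 CPM in WT) and the other 4 lower in SMARCA3 KO.

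In meiosis, the topoisomerase-like protein SPO11 cuts DNA together with a set of accessory proteins that includes REC114, MEI4 and MEI1. The cuts are made on chromosome axes built from meiotic cohesin (REC8, STAG3, SMC1B) and the axis proteins HORMAD1, SYCP2 and SYCP3. The recombinase DMC1 then pairs the broken end with the homologous chromosome. Most of these genes are silent in most somatic cells.

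Among the break-forming genes, C15orf60 was abundant in the SMARCA3 KO libraries and close to absent in the WT libraries. REC114, its product, binds MEI4 and is needed for meiotic break formation in mice. It had 1341, 1572 and 1377 counts in the SMARCA3 KO libraries, against 4, 1 and 5 counts in the WT libraries. As CPM these were 39.1, 42.7 and 41.7 in SMARCA3 KO and 0.0964, 0.0257 and 0.131 in WT. The groups stood far apart, and the 3 SMARCA3 KO libraries lay close together. The means were 41.2 ± 1.89 CPM in SMARCA3 KO and 0.0844 ± 0.0537 CPM in WT (SD, n = 3 each), a fitted log2 fold change of 8.87 and the highest of 18061 genes fitted. The 4290 counts of SMARCA3 KO against 10 counts of WT correspond to a ratio of 488 after scaling. In bulk RNA, more cells with the transcript and more transcript per cell cannot be told apart.

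SPO11 and MEI1, the other break-forming members, stayed at the limit of detection in both groups. SPO11, which makes the cut, had 0, 0 and 0 counts in the SMARCA3 KO libraries, against 0, 1 and 0 counts in the WT libraries. MEI1, which is needed for meiotic breaks in mice, had 3, 2 and 3 counts in SMARCA3 KO and 3, 5 and 5 counts in WT, a ratio of 0.701 (95% exact interval 0.252 to 1.82, counting error only) with overlapping groups. A floor of 3 counts in a library corresponds to 0.0815 to 0.0909 CPM in SMARCA3 KO and 0.0723 to 0.0787 CPM in WT. The level of C15orf60 in the WT libraries lay near that floor, and in the SMARCA3 KO libraries the gene had at least 1341 counts each while SPO11 had none.

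**Figure D1:**
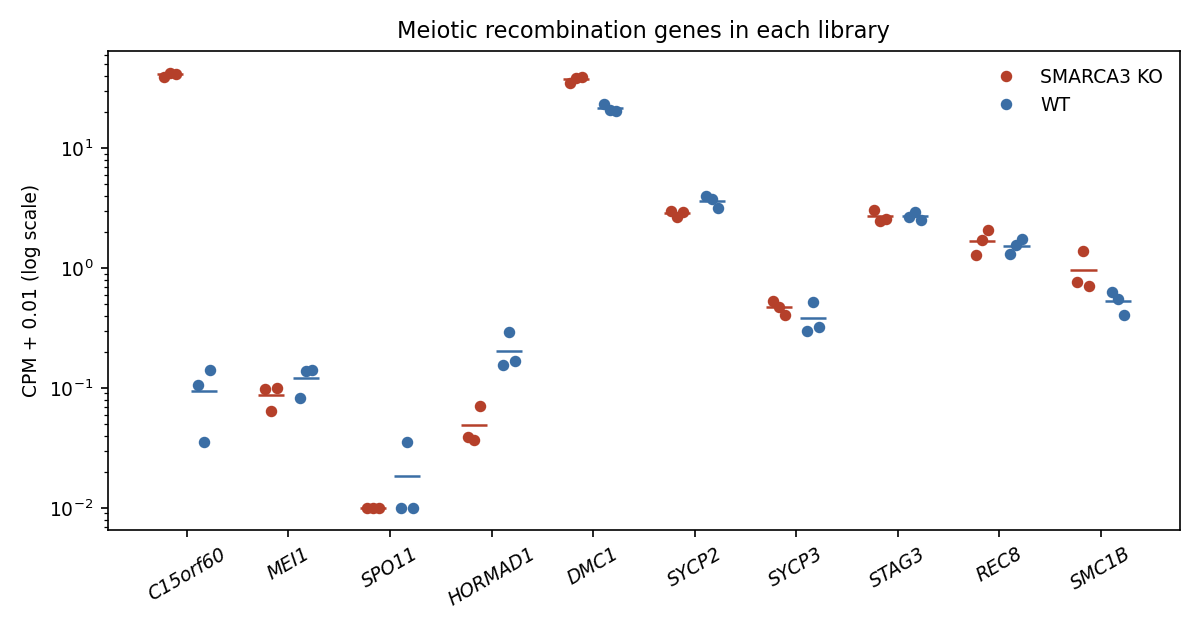
CPM of the 10 members in each library, plotted as CPM plus 0.01 on a log axis, with SMARCA3 KO left of WT. Each dot is 1 library and each line the group mean of 3 libraries. C15orf60 lies at 39.1 to 42.7 CPM in SMARCA3 KO and at 0.0257 to 0.131 CPM in WT, while SPO11 has 0 counts in 5 of the 6 libraries.

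C15orf60 lies on chromosome 15 between 73443158 and 73560014 on the plus strand (hg38, GENCODE gene REC114), between HCN4 and NPTN, and its exons share 1 base with those of NPTN on the other strand. The nearest expressed genes on both sides differed far less between the groups. NPTN, an adhesion protein of the immunoglobulin family whose 3' end abuts that of C15orf60, measured 87.7, 86.0 and 85.0 CPM in SMARCA3 KO and 81.0, 81.7 and 79.4 CPM in WT, and its difference of 0.10 on the log2 scale was not called (SE 0.04, adjusted p = 0.105). HCN4, a pacemaker channel gene on the other side, measured 2.65, 2.77 and 2.82 CPM in SMARCA3 KO and 1.78, 2.39 and 1.91 CPM in WT, a log2 fold change of 0.44 (adjusted p = 0.0341, not called in 7 of 15 alternatives, where it ran from 0.0147 to 0.1). NPTN-IT1, a transcript within an intron of NPTN, rose by 0.55 (adjusted p = 0.00333), and the receptor gene NEO1 by 0.21 (adjusted p = 0.00362). CD276 and ADPGK had log2 fold changes of -0.04 and 0.06 and were not called. Within 2000 kb of the start of C15orf60, 37 other genes with at least 1 CPM had log2 fold changes of -1.01 (CYP1A1) to 0.55 (NPTN-IT1). Their median was 0.07, and 10 of the 37 were called higher and 6 lower. Of all 18061 genes tested, 14.0% were called higher and 17.7% lower.

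**Figure D2:**
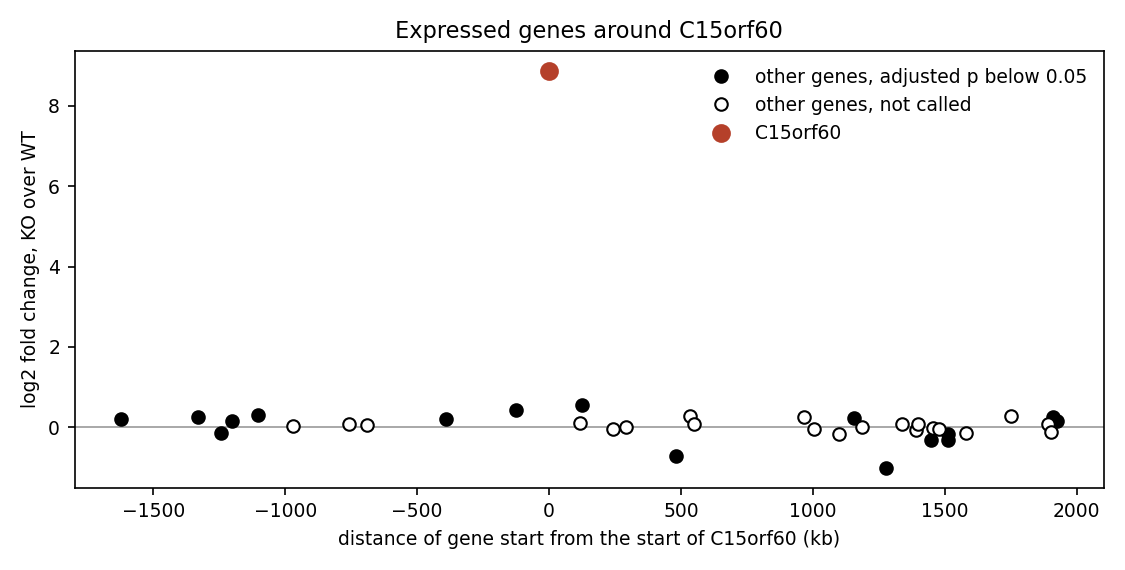
Log2 fold change (SMARCA3 KO over WT) of C15orf60 and of 37 other genes with at least 1 CPM, by the distance in kb of each gene's lowest coordinate from that of C15orf60. Filled black dots have an edgeR adjusted p below 0.05. C15orf60 stands at 8.87, and the other genes lie between -1.01 and 0.55.

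The promoters of C15orf60, of its near-absent partners SPO11 and MEI1 and of DMC1 are shown because these genes differ so widely in level. They are RefSeq sequences (GRCh38.p14) from 250 bases before to 50 bases after the gene start, written 5′ to 3′ along the gene: C15orf60 at chr15:73442914-73443213 (plus strand), SPO11 at chr20:57329553-57329852 (plus), MEI1 at chr22:41699253-41699552 (plus) and DMC1 at chr22:38570134-38570433 (minus). Capitals mark GCGGGA or its reverse complement TCCCGC, a form of the core of E2F-type sites, which E2F6 of the germline-silencing complex PRC1.6 can bind.
C15orf60: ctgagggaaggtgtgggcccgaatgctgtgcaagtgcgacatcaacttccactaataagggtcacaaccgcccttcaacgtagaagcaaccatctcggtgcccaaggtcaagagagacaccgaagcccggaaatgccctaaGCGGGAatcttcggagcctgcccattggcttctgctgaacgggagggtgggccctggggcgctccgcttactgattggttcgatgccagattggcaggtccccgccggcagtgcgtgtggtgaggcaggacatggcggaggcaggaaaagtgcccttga
SPO11: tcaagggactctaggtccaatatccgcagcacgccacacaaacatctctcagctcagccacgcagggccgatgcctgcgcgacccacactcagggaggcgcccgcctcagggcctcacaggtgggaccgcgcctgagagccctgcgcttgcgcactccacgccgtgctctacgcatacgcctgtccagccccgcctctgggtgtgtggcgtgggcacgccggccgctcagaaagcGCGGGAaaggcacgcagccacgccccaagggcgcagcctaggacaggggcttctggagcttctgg
MEI1: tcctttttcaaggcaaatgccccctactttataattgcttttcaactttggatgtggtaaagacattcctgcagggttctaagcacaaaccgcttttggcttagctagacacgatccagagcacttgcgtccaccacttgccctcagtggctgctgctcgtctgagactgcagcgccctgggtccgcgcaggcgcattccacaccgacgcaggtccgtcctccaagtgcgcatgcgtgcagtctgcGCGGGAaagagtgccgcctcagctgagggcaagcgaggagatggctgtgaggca
DMC1: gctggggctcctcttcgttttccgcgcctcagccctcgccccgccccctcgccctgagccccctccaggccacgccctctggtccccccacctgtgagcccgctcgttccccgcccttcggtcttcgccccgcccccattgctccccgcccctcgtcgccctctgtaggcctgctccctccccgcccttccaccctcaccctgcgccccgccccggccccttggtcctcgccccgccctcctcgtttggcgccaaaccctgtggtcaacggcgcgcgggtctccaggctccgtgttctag
GCGGGA was searched on both strands, as was CACGTG, the E-box bound by MAX and MGA of the same complex. Of the 9 members with a RefSeq promoter entry, which leaves out HORMAD1, 8 held GCGGGA, all but DMC1. Over all 34943 promoters of 300 bases the share was 26.8%, and over the 13986 promoters with 17 to 41 CpG dinucleotides, the range of the members, it was 47.2%. CACGTG was present in 1 of the 9, STAG3, against 7.23% of all promoters and 10.1% of those in the same CpG range. The promoter of C15orf60 held 17 CpG dinucleotides and its GCGGGA began 109 bases before the gene start. The promoters of SPO11 and MEI1, whose counts stayed near 0, held the motif as well. The part of this motif in the levels was not tested. A match in these letters is a description and does not show binding. Other forms of E2F-type sites were not searched, so DMC1, without GCGGGA, may still hold such a site.

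Among the axis genes, HORMAD1 had fewer reads in the SMARCA3 KO libraries, and SYCP2 and SYCP3 were not called. HORMAD1, which recruits the break machinery to chromosome axes in mice, had 1, 1 and 2 counts in SMARCA3 KO and 6, 11 and 6 counts in WT. The groups did not overlap, which holds for 24.4% of all genes tested in this direction and 21.2% in the other. The counts were too few to be tested, and their ratio was 0.198 (95% exact interval 0.0498 to 0.580). When the filter on low counts was dropped, its fitted log2 fold change was -2.25 (SE 0.71, edgeR adjusted p = 0.0124). SYCP2, a core component of the axis, measured 3.00, 2.66 and 2.94 CPM in SMARCA3 KO and 3.98, 3.72 and 3.15 CPM in WT. Every SMARCA3 KO library lay below every WT library, and the log2 fold change was -0.34 (SE 0.13, adjusted p = 0.0620). It was called in 1 of 15 alternatives, without WT replicate 3, at -0.42 (adjusted p = 0.0271). The highest adjusted p was 0.193, without SMARCA3 KO replicate 2. SYCP3, the partner of SYCP2 in the axis, measured 0.524, 0.462 and 0.394 CPM in SMARCA3 KO and 0.289, 0.513 and 0.315 CPM in WT, with overlapping groups (log2 fold change 0.31, SE 0.30, adjusted p = 0.469). Exons of SYCP3 overlap CHPT1 on the other strand by 566 bases.

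The meiotic cohesin genes were present at low levels in both groups and none was called. STAG3, the meiosis-specific SA subunit, measured 3.03, 2.47 and 2.58 CPM in SMARCA3 KO and 2.68, 2.93 and 2.52 CPM in WT (log2 fold change -0.01, SE 0.13, adjusted p = 0.969). Its exons overlap PVRIG on the same strand by 1606 bases and CASTOR3 on the other strand by 1163 bases, so its level is uncertain. REC8, the meiotic kleisin, measured 1.28, 1.71 and 2.06 CPM in SMARCA3 KO and 1.30, 1.54 and 1.73 CPM in WT (log2 fold change 0.15, SE 0.19, adjusted p = 0.608). For both genes the groups overlapped. SMC1B, the meiotic SMC1, measured 0.757, 1.39 and 0.697 CPM in SMARCA3 KO and 0.627, 0.539 and 0.393 CPM in WT. SMARCA3 KO replicate 2 was the highest of these, and the other 2 SMARCA3 KO libraries lay just above the WT libraries. The log2 fold change of 0.87 (SE 0.31) had an adjusted p of 0.0518, which fell below 0.05 in 6 of 14 alternatives, 0.0388 without SMARCA3 KO replicate 1, 0.0387 without SMARCA3 KO replicate 3 and 0.0285 without WT replicate 1 among them. Without SMARCA3 KO replicate 2 the log2 fold change was 0.48 (adjusted p = 0.253).

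DMC1, the meiotic RecA-family recombinase, was the 1 member called among the 6 tested besides C15orf60, and it was called higher. It measured 35.0, 38.3 and 38.9 CPM in SMARCA3 KO and 23.3, 20.7 and 20.4 CPM in WT. The groups did not overlap, and the means were 37.4 ± 2.12 CPM in SMARCA3 KO and 21.5 ± 1.58 CPM in WT (SD, n = 3 each). It rose by 0.80 on the log2 scale (SE 0.07, adjusted p = 1.09e-05 in edgeR). Of all 18061 genes tested, 14.0% were called higher and 17.7% lower, so 1 of 6 higher (16.7%) is near the share of genes in general, and with 6 members 0 lower is no sign of a difference from it. At an unadjusted p below 0.05 in edgeR, DMC1 and SMC1B were higher and SYCP2 lower, and 0 were called lower by DESeq2 or limma-voom. C15orf60 passed the filter on low counts only through the SMARCA3 KO libraries and is left out of these counts.

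DMC1, SMC1B and MEI1 all lie on chromosome 22, in a stretch where most expressed genes were higher in the SMARCA3 KO libraries. Around DMC1 (38518949 to 38570286, minus strand, hg38) 33 of the 40 nearest genes with at least 2 CPM were called higher and 3 lower, with a median log2 fold change of 0.38. DDX17, an RNA helicase gene next to it, rose by 0.55 and the mitochondrial import gene TOMM22 by 0.32, while KDELR3, a receptor that returns proteins to the endoplasmic reticulum, fell by 1.81 on the log2 scale. KCNJ4 and FAM227A rose by 0.73 and 0.30, and CBY1 (0.04) was not called. With the neighbour median removed DMC1 was still called higher, at 0.43 (adjusted p = 0.00111), the highest adjusted p of the 15 alternatives (the lowest, 3.06e-24, came from dropping the count filter). Around SMC1B 32 of 40 neighbours were called higher and 1 lower, the median was 0.46, and with it removed SMC1B was at 0.43 (adjusted p = 0.321). Around MEI1 34 of 40 were called higher and 1 lower. How far the level of DMC1 follows this stretch was not tested beyond that removal.

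**Figure D3:**
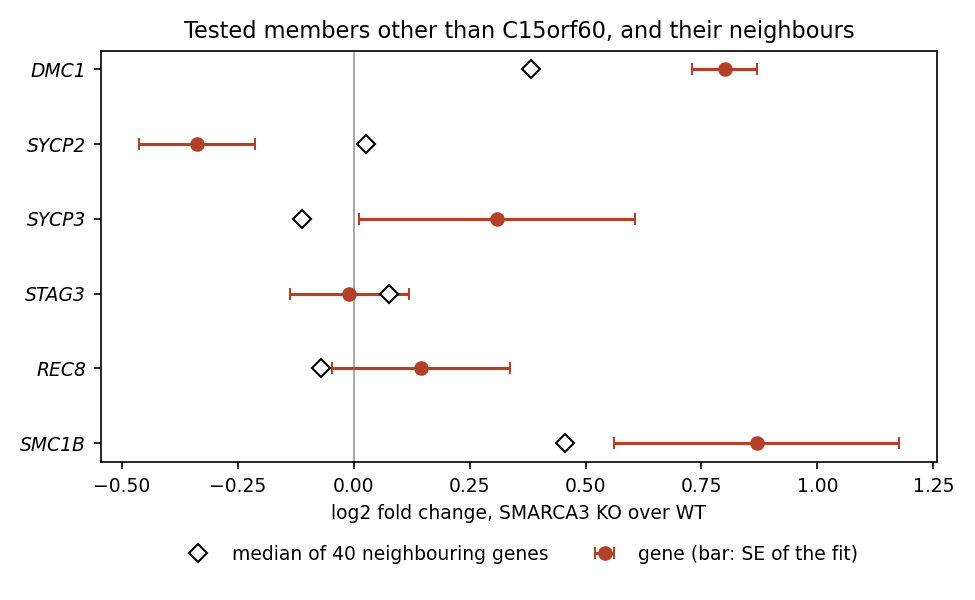
Log2 fold change (SMARCA3 KO over WT) of the 6 tested members besides C15orf60, as red dots with the SE of the edgeR fit, and the median of the 40 neighbouring expressed genes, as open diamonds. DMC1 lies at 0.80 beside a neighbour median of 0.38, and SMC1B at 0.87 beside 0.46.

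Levels between members were compared as CPM per kb of annotated exon. In the SMARCA3 KO libraries C15orf60 was the most abundant member, at 44.4 ± 2.03 CPM per kb over 927 bases of exon, followed by DMC1 at 10.6 ± 0.601 (SD, n = 3 each). SYCP2 (0.443), REC8 (0.438), STAG3 (0.314) and SMC1B (0.223) came next with ranges that overlapped from each to the following one, then SYCP3 (0.120), HORMAD1 (0.0162) and MEI1 (0.0144), the last 2 overlapping, and SPO11 at 0. In the WT libraries DMC1 was the highest, at 6.09 ± 0.448 CPM per kb, and C15orf60 stood seventh at 0.0910 ± 0.0580, overlapping both its neighbours in the order, SYCP3 (0.0973) and HORMAD1 (0.0810). Among 14460 tested genes with an annotated exon length, the level of C15orf60 per kb stood at percentile 93.7 in SMARCA3 KO and 3.33 in WT, and that of DMC1 at 70.4 in SMARCA3 KO and 56.5 in WT. DMC1 was thus the 1 member near the middle of the tested genes in both groups.

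The rest of the meiotic pathway did not move as a group. Of 46 further meiosis genes, 26 had enough counts to test, and 5 were higher, 5 lower and 16 not called (19.2% each way, against 14.0% and 17.7% of all genes). Their median log2 fold change was 0.01, beside 0.0031 over all genes. Without SMARCA3 KO replicate 3, 3 were called higher, without WT replicate 2, 3 were called lower, and without WT replicate 1, 7 were called higher. MEIKIN, SPATA22 and DMRT1 had 0 counts in every library.

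Of the direct partners of REC114, MEI4 and ANKRD31 were lower in the SMARCA3 KO libraries. MEI4, which forms a complex with REC114 in mice, measured 0.175, 0.217 and 0.121 CPM in SMARCA3 KO and 0.482, 0.411 and 0.551 CPM in WT, with no overlap (log2 fold change -1.46, SE 0.32, adjusted p = 0.00551), and it rests on 18 and 57 counts. ANKRD31, a partner of REC114 in mice, measured 0.612, 1.25 and 1.06 CPM in SMARCA3 KO and 2.14, 1.64 and 1.39 CPM in WT (log2 fold change -0.82, SE 0.25, adjusted p = 0.0272). The ANKRD31 call was lost in 6 of 15 alternatives, with adjusted p-values of up to 0.093 (without SMARCA3 KO replicate 1). CCDC36 (IHO1), an axis-bound partner, had 2 counts in SMARCA3 KO and 5 in WT. C11orf80 (TOP6BL), the second subunit of the SPO11 enzyme, had a log2 fold change of 0.02 and was not called. C15orf60 was thus high where MEI4 and ANKRD31 fell and SPO11, MEI1 and CCDC36 stayed near 0.

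Genes of later steps moved in both directions. The mediators of DMC1 differed from each other: PSMC3IP (HOP2) rose by 0.46 (adjusted p = 0.000833), with 31.5, 32.1 and 28.1 CPM in SMARCA3 KO against 20.3, 23.5 and 22.7 CPM in WT, and its partner MND1 fell by 0.30 (adjusted p = 0.00562). Neither was called with the neighbour median removed (adjusted p = 0.0973 and 0.0992). Of the crossover genes, CNTD1 had 2.18, 2.34 and 2.21 CPM in SMARCA3 KO and 1.18, 1.33 and 1.29 CPM in WT, a log2 fold change of 0.83 (adjusted p = 0.000951) beside a neighbour median of 0.30. The helicase HFM1 rose by 0.32 (adjusted p = 0.0285) and the mismatch repair factor MLH3 fell by 0.46 (adjusted p = 0.0145), calls that were lost in 5 and 4 of 15 alternatives. TRIP13, the AAA ATPase that removes HORMA proteins and also acts in mitosis, measured 107, 115 and 109 CPM in SMARCA3 KO and 132, 131 and 128 CPM in WT (log2 fold change -0.24, adjusted p = 0.00150). SUN1, which links telomeres to the nuclear envelope, rose by 0.14 (adjusted p = 0.0298), a call lost in 5 of 15 alternatives.

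BHMG1, now named MEIOSIN, had the largest rise of the 26 tested. In mice it acts with STRA8 to switch on meiotic genes. It measured 2.16, 1.90 and 1.61 CPM in SMARCA3 KO and 0.699, 0.898 and 0.656 CPM in WT, with no overlap (log2 fold change 1.33, SE 0.19, adjusted p = 0.000342 in edgeR). Its partner STRA8 had 1 count in SMARCA3 KO and 0 in WT. MEI4, CNTD1, TRIP13 and BHMG1 kept their calls in every alternative in which they were fitted. Exons of PSMC3IP overlap MLX by 770 bases, those of CNTD1 overlap BECN1 by 795 bases and those of TRIP13 overlap BRD9 by 182 bases, each on the other strand, and those of SUN1 overlap GET4 on the same strand by 1842 bases.

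**Figure D4:**
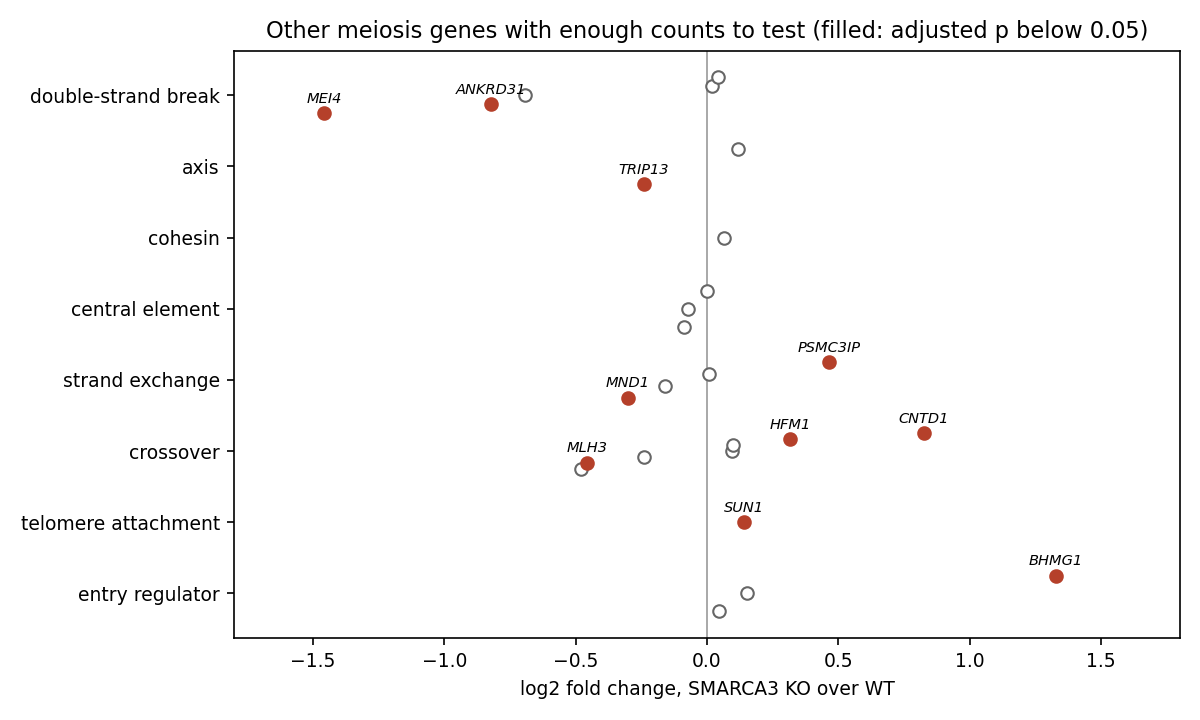
Log2 fold change (SMARCA3 KO over WT) of the 26 tested meiosis genes besides the members, by role. Filled dots, with names, have an edgeR adjusted p below 0.05, 5 higher and 5 lower, and BHMG1 at 1.33 and MEI4 at -1.46 are the outermost.

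The somatic counterparts of these genes, mitotic cohesin and strand exchange factors, were called about as often as genes in general. In this list of 21, all tested, 4 genes rose and 3 fell (19.0% and 14.3%, against 14.0% and 17.7% of all genes) and 14 passed neither way, with a median log2 fold change of 0.08. STAG2, the mitotic relative of STAG3, rose to 657 ± 26.5 CPM in SMARCA3 KO, against 490 ± 35.1 CPM in WT (SD, n = 3 each), a log2 fold change of 0.42 (edgeR adjusted p = 0.000147). The cohesin regulator PDS5B rose by 0.26, the recombination factor XRCC2 by 0.24 and BRCA1 by 0.18. With the neighbour median removed XRCC2 was at 0.094 (adjusted p = 0.175) and BRCA1 at -0.14. STAG1 of mitotic cohesin fell by 0.13, a call lost in 12 of 15 alternatives. The other genes called lower were 2 strand exchange factors, at -0.25 (adjusted p = 0.0115) and -0.28 (adjusted p = 0.0371). Their calls were lost in 3 and 7 of 15 alternatives. With the neighbour median removed the first was at -0.0013 (edgeR adjusted p = 0.990), and the second was still called lower. With any 1 library left out, 0 or 1 of the 21 was called lower, and without WT replicate 1, 7 were called higher.

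Regulators that keep germline genes silent were listed from the E2F6 complex PRC1.6 and from H3K9 and DNA methylation. Of 21 tested, 4 were called higher and 0 lower (19.0% higher, against 14.0% higher and 17.7% lower of all genes). At an unadjusted p below 0.05 in edgeR 9 were higher and 1 (TFDP1) lower, and 0 were called lower by DESeq2 or limma-voom. The DNA-binding subunit MGA measured 142, 140 and 140 CPM in SMARCA3 KO and 118, 115 and 112 CPM in WT (log2 fold change 0.29, edgeR adjusted p = 0.000214). Without WT replicate 1, 7 of the 21 were called higher. L3MBTL2 of the same complex rose by 0.52 beside a neighbour median of 0.32 on chromosome 22. RYBP rose by 0.21 and the H3K9 methyltransferase EHMT2 by 0.36. E2F6 itself had a log2 fold change of 0.14 (adjusted p = 0.0761), and DNMT1 and SETDB1 (0.09 and 0.10) were not called.

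Markers of germ cells were at or near 0 for the most part. Of 18, 14 had too few counts to test. Among these 14, 4 (DAZL, ZPBP, PRM1 and TNP1) had 0 counts in all 6 libraries, and DDX4 had 7 counts in SMARCA3 KO and 3 in WT. The summed level of all 18 was 54.6 to 63.4 CPM in SMARCA3 KO and 52.5 to 59.8 CPM in WT. TEX15 alone made up 52.4 ± 4.39 CPM in SMARCA3 KO and 51.5 ± 3.46 CPM in WT (SD, n = 3 each). Of the 4 tested, 3 were called higher and 0 lower. That is 75.0% higher, a share resting on 4 genes, against 14.0% higher and 17.7% lower of all genes. ACRV1 rose by 0.86 (adjusted p = 0.00586), STK31 by 1.17 (0.0256) and TEX14 by 0.37 (0.0299) on the log2 scale, and TEX15 was not called. STK31 and TEX14 lost their calls in 4 of 14 and 8 of 15 alternatives. The part of such markers in the level of C15orf60 was not tested.

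Genes outside meiosis came closest to C15orf60 in CPM over the libraries, with no division by exon length. By the Euclidean distance of log2 CPM over the 6 libraries, the nearest of the tested genes were KLHL4 (3.48), FLRT2 (3.83), FGF13 (4.98), TNFRSF8 (5.13) and STMN2 (5.19), in log2 units. KLHL4, a kelch protein gene on the X chromosome, measured 13.8, 15.7 and 17.1 CPM in SMARCA3 KO and 0.0723, 0.205 and 0 CPM in WT. Its CPM in SMARCA3 KO was lower than that of C15orf60 in every library, and none of the 5 lies on chromosome 15. KLHL4 has 5818 bases of exon and FLRT2 34899, against 927 for C15orf60. Per kb of exon their levels in SMARCA3 KO therefore lie further below that of C15orf60.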

How the data were processed

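Poly(A)-selected RNA of 6 HEK293T libraries was read from a stranded mRNA kit, per the labels' protocols. The authors deposited whole-number read counts per gene symbol, not normalized and not pooled. STAR 2.4 and HTSeq 0.9.1 are named with hg38, per the submitters' processing notes, while for the annotation and for strand use in counting nothing is given in the sources used here. Reads of genes that overlap on opposite strands may therefore not have been told apart.

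The test was that of edgeR 4.0.16 (R 4.3.3): filterByExpr with the group, which left 18061 genes, TMM scaling, the quasi-likelihood F test of SMARCA3 KO against WT with no covariate, two-sided, with Benjamini-Hochberg adjustment over all genes tested and a threshold of 0.05. CPM are counts scaled to 1000000 over TMM-adjusted library sizes. The SE is the log2 fold change divided by the square root of F. Replicate libraries differed beyond sampling noise (chi-square over its degrees of freedom, 3.3 to 13.6), so all 6 libraries were counted separately. PCR copies cannot be told from molecules here, so intervals and floors describe counting error alone. The test was checked on simulated counts with the same spread among replicates for every gene, a simpler setting than these libraries. That check does not cover stretches of a chromosome that shift together or replicates that are technical.

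Positions, exon lengths and overlaps came from GENCODE 29 (GRCh38), matched by symbol or older symbol for 30454 of 56832 symbols. Neighbour medians used the 40 nearest genes with at least 2 CPM, 20 on each side. Named genes are the 10 members, HLTF, up to 4 called genes per direction and list, the nearest 3 expressed genes on either side of C15orf60 and of DMC1, and the 5 nearest profiles. Genes outside this rule, such as SUN1, ANKRD31, CCDC36 or E2F6, were named after their values were seen. Some genes of the lists are not reported here by name. The members and lists were chosen with earlier results of these data known. Alternatives were RLE factors, library size only, no filter, at least 1 CPM in 3 libraries, DESeq2 1.42.0, limma-voom 3.58.1, a robust fit, a block for replicate number, leaving out each library in turn, a threshold of 0.01, and removal of the neighbour median.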

Additional observations from a re-analysis of the deposited data

How the results depend on the processing

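C15orf60 kept a log2 fold change of 8.47 to 9.30 with 1 library left out and 8.87 to 8.94 in the other alternatives. HLTF stayed between -0.51 and -0.42 with 1 library left out. With the neighbour median removed, log2 fold changes turned to 0.034 for HLTF, -0.14 for BRCA1, 0.019 for VIM, -0.081 for FAM227A, -0.34 for CBY1 and -0.051 for TOMM22, by construction of that alternative. STAG3, near 0, was at 0.0014 with RLE factors, 0.00076 with at least 1 CPM in 3 libraries and 0.0018 with DESeq2, and ran from -0.090 to 0.058 with 1 library left out. REC8 ran from -0.017 (without SMARCA3 KO replicate 3) to 0.32.

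Besides C15orf60, 2 members (DMC1 and SMC1B) were called higher with RLE factors, with no filter and with the robust fit, and 1 (HORMAD1) was called lower with no filter; leaving out 1 library gave 1 to 2 higher and 0 to 1 lower. Other meiosis genes gave 3 higher with the replicate block, 3 higher and 3 lower at a threshold of 0.01, 2 lower with the neighbour median removed, and 3 to 7 higher and 3 to 5 lower with 1 library left out. Somatic counterparts gave 1 lower with DESeq2 and with the block, 0 lower at 0.01, 7 higher and 1 lower with the neighbour median removed, and 3 to 7 higher and 0 to 1 lower with 1 library left out. Germline repressors gave 8 higher and 1 lower with the neighbour median removed and 4 to 7 higher with 1 library left out. The causes were not tested.

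Of 53 tested genes followed through the alternatives, 29 kept direction and call in each one in which they were fitted. These 53 are not exactly the genes named here. Replicate numbers gave no sign of pairing the samples, though 3 libraries per group are too few to exclude it. Deviations of same-numbered libraries correlated at -0.226, -0.0144 and -0.0547, and 0 of 3 SMARCA3 KO libraries correlated best with their own number. With the replicate block 1791 genes were called higher and 2441 lower, against 2532 and 3205 without it, and DMC1 stayed called. SPO11, MEI1 and HORMAD1, which had too few counts to be tested, are limited by depth.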
